A study of Mus musculus with 3 samples.

Results

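Mgp and 8 genes that mark adipogenesis-regulatory cells (Aregs) were followed cell by cell in the inguinal stromal vascular fraction (SVF) of mice with and without Mgp. The 9 genes, of 32285 in the count tables, were Mgp, F3, Fmo2, Gdf10, Clec11a, Meox2, Vit, Inmt and Tspan11. They were chosen because earlier results of these same data showed them to vary together, so every level given here is a description of these libraries and not a test. Cells were barcodes with at least 2000 unique molecular identifiers (UMIs, 1 per captured transcript) and at most 10% mitochondrial UMIs. Cells with at least 1 Pdgfra UMI are called Pdgfra cells, and those that also held at least 2 Gdf10 UMIs are called Gdf10 cells. The level of a gene is given in UMIs of the gene scaled to a fixed total (CPM), summed over the cells named, with a 95% exact Poisson interval where an interval is printed. Levels were compared for the same gene between cells and not between genes, except where the largest parts of a marker sum are named.

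The SVF, the non-adipocyte fraction of a digested fat pad, came from inguinal fat of mice aged 4 weeks, and CD45-positive cells had been removed. Each genotype was a single library of pooled mice of both sexes, so there is no replicate, no p-value was computed, and all intervals cover counting error only. The Wild-type library carried the genotype label Wild-type, which names no engineered allele. Mgp-KO mice carried the global Mgp null allele. Pd-KO mice carried floxed Mgp on both chromosomes together with a Pdgfra-Cre transgene. By design, deletion is directed at cells that express Pdgfra or descend from such cells, and whether it was limited to them was not tested. A floxed library without Cre was not analysed here, and the difference between Pd-KO and Wild-type therefore holds the Cre transgene and the floxed allele as well as the deletion.

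Matrix Gla protein, the product of Mgp, is a secreted protein with glutamate residues that are carboxylated in a vitamin K-dependent reaction. It is known as an inhibitor of soft tissue calcification and as a protein that binds bone morphogenetic proteins (BMPs). Aregs are stromal cells of adipose tissue that were described by surface F3 (CD142) and restrain the differentiation of neighbouring preadipocytes into adipocytes. F3 encodes tissue factor, the cell surface receptor that starts coagulation, and Gdf10 encodes a secreted ligand of the TGF-beta superfamily. Clec11a encodes a secreted lectin-domain growth factor of the skeleton, and Vit encodes vitrin, a matrix protein. Fmo2 encodes a flavin-containing monooxygenase, Inmt an indolethylamine N-methyltransferase, Meox2 a homeobox transcription factor and Tspan11 a membrane protein of the tetraspanin family.

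The coding sequence of Mgp is shown with its glutamate codons because vitamin K-dependent carboxylation acts on glutamate residues. The sequence does not show which of these residues are carboxylated. Mgp lies on the minus strand at chr6:136872435-136875823 (GRCm38) with 4 exons, and its coding sequence of transcript Mgp-201 has 312 bases. The first 300 bases are printed from 5′ to 3′, with the 8 codons for glutamate (GAA or GAG) in capitals.
Mgp coding: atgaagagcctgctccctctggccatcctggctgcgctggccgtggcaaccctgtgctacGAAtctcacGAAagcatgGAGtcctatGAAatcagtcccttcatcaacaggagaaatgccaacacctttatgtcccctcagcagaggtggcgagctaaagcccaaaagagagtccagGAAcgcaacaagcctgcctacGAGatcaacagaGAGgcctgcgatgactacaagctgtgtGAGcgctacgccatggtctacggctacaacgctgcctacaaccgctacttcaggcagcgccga

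Promoter windows of 250 bases before the annotated start are shown for Gdf10, F3 and Fmo2, because these 3 genes varied together across cells. Fmo2 has 2 windows in the table, and the one farther upstream is printed. The sequences are from RefSeq (GRCm38.p6), read along the strand of the gene, with motif matches in capitals. The windows lie at chr14:33923337-33923586 on the plus strand for Gdf10, at chr3:121723287-121723536 on the plus strand for F3, and at chr1:162898759-162899008 on the minus strand for Fmo2.
Gdf10 promoter: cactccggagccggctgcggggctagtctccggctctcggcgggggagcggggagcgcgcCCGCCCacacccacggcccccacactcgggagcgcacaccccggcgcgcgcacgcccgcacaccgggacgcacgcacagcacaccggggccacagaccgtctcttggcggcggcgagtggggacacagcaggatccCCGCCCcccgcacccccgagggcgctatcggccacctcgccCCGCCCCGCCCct
F3 promoter: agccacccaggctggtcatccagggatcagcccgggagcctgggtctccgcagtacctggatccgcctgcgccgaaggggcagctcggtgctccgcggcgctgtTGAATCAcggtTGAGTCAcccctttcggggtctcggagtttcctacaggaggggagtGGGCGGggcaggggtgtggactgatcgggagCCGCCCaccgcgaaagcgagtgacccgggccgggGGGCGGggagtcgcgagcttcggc
Fmo2 promoter: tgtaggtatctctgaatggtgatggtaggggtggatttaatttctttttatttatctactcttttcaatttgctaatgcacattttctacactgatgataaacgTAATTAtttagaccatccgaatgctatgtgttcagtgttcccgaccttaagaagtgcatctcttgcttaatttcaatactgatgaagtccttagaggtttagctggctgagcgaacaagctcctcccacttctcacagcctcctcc

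The Gdf10 window had a GC content of 78.8%, the F3 window 70.0% and the printed Fmo2 window 39.6%, beside a median of 52.4% over 32851 windows of the same length. The searched motifs, on both strands, were TATAAA (the TATA box), CCAAT (the CCAAT box), GGGCGG (the GC box bound by Sp factors), TAATTA (a homeodomain core), TGANTCA (the AP-1 site) and GGCGCC (a GC-rich Smad motif). Gdf10 held 4 matches to GGGCGG, and the closest to the start overlap each other by 1 base. F3 held 3 matches to GGGCGG and 2 to TGANTCA, and the printed Fmo2 window held 1 match to TAATTA. The other Fmo2 window, at chr1:162898494-162898743, had a GC content of 47.6% and no match. The table gave 8 windows for 7 of the 9 genes. GGGCGG was in 4 of these 8 windows and in 32.7% of all windows, TATAAA in 2 and 12.4%, CCAAT in 1 and 33.8%, TAATTA in 1 and 4.84%, TGANTCA in 1 and 6.75%, and GGCGCC in 0 and 9.59%. No motif was shared by all windows, and a match describes letters only.

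The libraries differed in depth, and this bears on every share of cells with a UMI. The tables held 184102026 UMIs for Wild-type, 93212243 for Mgp-KO and 83942865 for Pd-KO, and 10511, 12575 and 8819 cells were kept in that order. Pdgfra cells numbered 7702, 9099 and 6374, which is 72.3% to 73.3% of the kept cells, and their median UMI counts were 14424.5, 6897 and 9408.5. Values are therefore also given after thinning, in which each cell was reduced to 2000 UMIs by a random draw. Gates were applied again to the thinned counts, with some exceptions. Thinned shares with a UMI in lineage gates and in Pdgfra cells, and thinned marker numbers by Mgp count, kept the cells gated at the deposited depth. The matrix headers name Cell Ranger 4 for Wild-type and 7.1.0 for both knockouts, so genotype and software version cannot be told apart. By default the later version counts intronic reads and the earlier one does not. Whether they were counted here is not given in the sources used here, and this bears on every ratio of a knockout to Wild-type, including those of Meox2, Vit and Tspan11, genes that span 70995, 119345 and 66389 bases. Female cells, with Xist and no UMI of 4 Y-linked genes, made up 34.6%, 60.6% and 32.6% of Pdgfra cells. Male cells, with a Y-linked UMI and no Xist, made up 37.8%, 16.6% and 42.7%, so the mix of sexes differed as well. The remaining cells had both or neither and are left out of the values by sex. The libraries shared 35 to 40 cell barcodes in each pair. Among Pdgfra cells, 9.54%, 1.97% and 4.47% also passed a gate for another lineage (at least 5 UMIs and 3 genes of a marker list), which includes doublets. Cells of the immune gate numbered 17, 7 and 24, and a neuron gate was passed by 91 Wild-type cells and by 0 cells of either knockout library.

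Mgp transcripts of Wild-type Pdgfra cells were concentrated in few cells. Mgp stood at 474 CPM, 48.7% of the 7702 cells held an Mgp UMI, and 1 cell held 796. The 386 cells with the most Mgp, which are the top 5%, held 69.1% of all Mgp UMIs. The markers were uneven as well. Their corresponding cells held 68.0% of Fmo2 UMIs, 64.0% of Tspan11, 62.6% of Vit, 54.6% of Inmt, 52.1% of Meox2, 50.9% of F3, 49.5% of Clec11a and 41.2% of Gdf10. Gdf10 was found in 47.4% of these cells, Inmt in 36.2%, F3 in 29.2%, Clec11a in 26.7%, Fmo2 in 24.5%, Meox2 in 20.2%, Tspan11 in 14.0% and Vit in 13.7%. Such a share counts cells with a UMI, which free RNA can give, and not cells that express the gene.

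A single Mgp UMI was within the range of free RNA. Barcodes of 10 to 100 UMIs, taken as free RNA, held Mgp at 359 CPM in the Wild-type library. Wild-type cells of the neuron gate held 41.3 CPM and a UMI in 16.5% of cells at a median of 3151 UMIs. Wild-type cells of the epithelial gate held 65.4 CPM and a UMI in 40.1% at a median of 20711. Whether cells of these gates express Mgp themselves was not tested. After thinning of the cells gated at the deposited depth, an Mgp UMI was found in 5.49% of the neuron gate and 10.6% of the epithelial gate. The share was 21.0% of Pdgfra cells without a lineage gate. Cells with at least 10 Mgp UMIs were for this reason set against cells with 0. The markers differed in the same respect. Wild-type free RNA held F3 at 124 CPM (105 to 147), above the 61.3 CPM of Pdgfra cells, and Vit at 35.7 CPM (25.6 to 48.4) beside 18.9 CPM. Meox2 stood at 25.2 CPM (16.9 to 36.2) in free RNA and 25.5 CPM in Pdgfra cells. The other markers were lower in Wild-type free RNA, with Gdf10 at 45.2 CPM, Fmo2 at 36.5 CPM, Inmt at 33.9 CPM, Clec11a at 16.5 CPM and Tspan11 at 4.35 CPM. In the neuron gate, thinned to 2000 UMIs, a UMI was found in 3.30% of cells for Inmt, 2.20% for Fmo2, 1.10% for Clec11a and 0% for F3, Gdf10, Meox2, Vit and Tspan11. The corresponding shares of Pdgfra cells were 14.1%, 10.6%, 8.05%, 9.88%, 18.2%, 5.38%, 4.41% and 3.53%. The neuron gate has 91 cells, so its shares are coarse. In Mgp-KO, free RNA held Gdf10 at 73.4 CPM (55.7 to 94.9), beside 69.5 CPM in Pdgfra cells, so the gate gene did not stand above free RNA there. F3 stood at 72.1 CPM in Mgp-KO free RNA beside 53.1 CPM in Pdgfra cells, and Meox2 at 16.4 beside 12.8 CPM. Fmo2 stood at 73.4 beside 93.0 CPM, Inmt at 156 beside 187 CPM, and Clec11a at 21.5 beside 22.0 CPM. Vit stood at 11.4 beside 13.6 CPM and Tspan11 at 6.33 beside 9.11 CPM.

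Mgp was not limited to Pdgfra cells, whereas most markers were lower in the other lineages. In Wild-type, Mgp was highest in the endothelial gate at 631 CPM (614 to 648), next in the mural gate at 554 CPM (540 to 570) and next in Pdgfra cells without a lineage gate at 475 CPM (471 to 479). Both vascular gates include cells with a Pdgfra UMI, and without these the endothelial gate held 670 CPM and the mural gate 367 CPM, so that the mural gate then lay below the Pdgfra cells. Mgp was far lower in the epithelial gate at 65.4 CPM (60.2 to 71.0), the Schwann gate at 53.3 CPM (41.1 to 68.1) and the neuron gate at 41.3 CPM (24.0 to 66.0), and the intervals of these last 3 overlapped. Meox2 went with the vasculature, at 96.3 CPM in the endothelial gate, 69.9 CPM in the mural gate and 23.4 CPM in Pdgfra cells without a lineage gate. F3 was highest in the epithelial gate, at 143 CPM in Wild-type, 338 CPM in Mgp-KO and 268 CPM in Pd-KO, beside 60.3, 50.2 and 54.6 CPM in Pdgfra cells without a lineage gate. Gdf10 stood at 133 CPM in the latter cells of Wild-type, at 62.3 CPM in the mural gate, 51.5 CPM in the endothelial gate and 17.7 CPM in the epithelial gate. Fmo2 stood at 96.4, 55.1, 71.6 and 47.2 CPM in the same 4 classes, and Inmt at 126, 57.0, 27.6 and 16.0 CPM. Vit and Tspan11 were lower in each of the other 3 classes, with 20.0 and 18.9 CPM in Pdgfra cells without a lineage gate and at most 10.1 and 10.6 CPM elsewhere. Across Wild-type cells of the endothelial gate, Pearson's r of the markers with Mgp ran from 0.05 to 0.32 over 902 cells, and in the mural gate from 0.11 to 0.33 over 994 cells.

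All 8 markers varied with Mgp across Wild-type Pdgfra cells. Pearson's r across the 7702 cells, computed on the logarithm of 1 plus UMIs per 10000, was 0.64 for Fmo2, 0.56 for Gdf10, 0.55 for Clec11a, 0.53 for Tspan11, 0.51 for F3, 0.50 for Vit, 0.50 for Meox2 and 0.30 for Inmt. The cells share 1 library, so these values are descriptions without a p-value. Among 13337 genes found in at least 1% of the cells, 46 (0.345%) reached 0.3 with Mgp, the median was -0.01, and Fmo2 ranked first, Gdf10 number 3 and Inmt number 45. Of the 8 markers, 7 were among the 20 genes most like Mgp. After thinning to 2000 UMIs (3496 cells), r was 0.51 for Fmo2, 0.41 for Gdf10, 0.35 for Clec11a, 0.33 for F3, 0.33 for Vit, 0.30 for Tspan11, 0.30 for Meox2 and 0.26 for Inmt. Fmo2 and Gdf10 then ranked 1 and 2 of 9807 genes, so lower depth lowered the values and left these markers at the top of the order.

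Levels of the markers other than Inmt were higher at each step of Mgp count, and the difference was small from 0 to 1 UMI. The intervals at 0 and at 1 UMI overlapped for F3, Clec11a, Meox2 and Tspan11. For Vit the intervals at 20 to 49 and at least 50 UMIs overlapped. Fmo2 stood at 18.8 CPM in the 3949 cells without Mgp, at 28.2 CPM in the 1631 cells with 1 UMI, and at 804 CPM in the 289 cells with at least 50. Gdf10 stood at 60.4, 68.4 and 688 CPM in the same cells, F3 at 33.0, 35.5 and 414 CPM, and Clec11a at 20.0, 22.6 and 309 CPM. Meox2 stood at 11.5, 12.8 and 175 CPM, Tspan11 at 5.64, 6.17 and 165 CPM, and Vit at 5.59, 7.69 and 114 CPM. Inmt differed in shape. It stood at 65.4 CPM without Mgp and at 354, 389 and 384 CPM in the last 3 groups, with intervals of 336 to 373, 372 to 408 and 365 to 405 CPM, and neighbouring intervals overlapped. Cells with at least 50 Mgp UMIs were 3.75% of Pdgfra cells and held 61.5% of their Mgp UMIs.

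**Figure D1:**
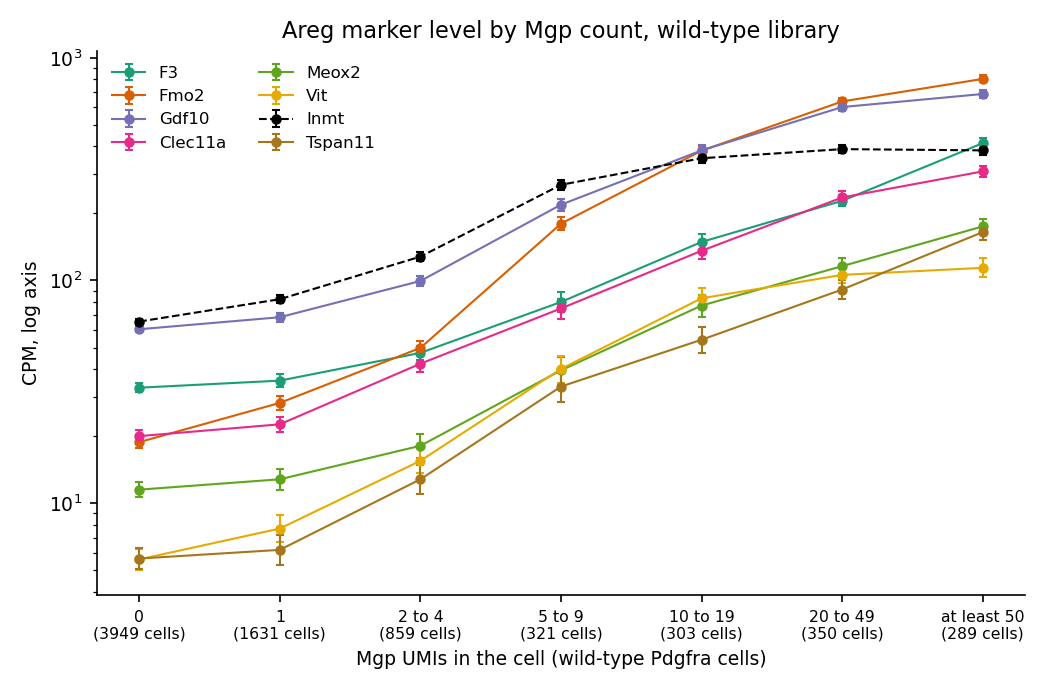
Level of each of the 8 markers (CPM, log axis) in Wild-type Pdgfra cells grouped by the number of Mgp UMIs, with 95% Poisson intervals as bars and the number of cells under each group. Fmo2 goes from 18.8 to 804 CPM, and Inmt (dashed) levels off at 354 to 389 CPM in the last 3 groups.

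Set as a ratio, the 942 cells with at least 10 Mgp UMIs held 32.2-fold more Fmo2 than cells without Mgp (log2 5.01, 4.92 to 5.10). The ratio was 18.1-fold for Vit, 17.9-fold for Tspan11, 11.2-fold for Clec11a, 10.5-fold for Meox2, 9.20-fold for Gdf10, 7.80-fold for F3 and 5.76-fold for Inmt. The number of markers found in the same cell followed. Cells without Mgp held a median of 1 of the 8 markers, those with 10 to 19 Mgp UMIs a median of 4, and those with at least 50 a median of 7. At least 5 markers were found in 2.25% of the cells without Mgp and in 83.0% of those with at least 50. With the same groups kept and their cells thinned, the mean number of markers went from 0.370 in the former to 3.25 in the latter. The cells with most Mgp were not the deepest, with a median of 11718 UMIs beside 14425 in cells without Mgp.

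Mgp and Gdf10 marked overlapping cells, and the marker programme was highest where both were high. Of the 942 cells with at least 10 Mgp UMIs, 703 (74.6%, exact binomial interval 71.7% to 77.4%) were Gdf10 cells. These 703 were 30.7% (28.8% to 32.7%) of the 2288 Gdf10 cells, and another 801 Gdf10 cells (35.0%) held no Mgp. The 703 cells held Fmo2 at 776 CPM, F3 at 312 CPM, Clec11a at 280 CPM and Inmt at 441 CPM, with a median of 5 of the 7 markers other than Gdf10. The 801 Gdf10 cells without Mgp held Fmo2 at 34.0 CPM, F3 at 42.8 CPM, Clec11a at 25.2 CPM and Inmt at 94.1 CPM, with a median of 1 marker, although they were deeper (median 16108 UMIs against 11650). Gdf10 itself stood at 209 CPM in these 801 cells and at 749 CPM in the 703, so the groups differed in Gdf10 as well as in Mgp. The 160 cells with at least 10 Mgp UMIs and no Gdf10 held Fmo2 at 76.5 CPM and F3 at 58.7 CPM with a median of 2 markers, and 26.2% of them passed a lineage gate. Without those, the remaining 118 cells held Fmo2 at 81.0 CPM and Inmt at 261 CPM. Cells with neither gene (2405) held Fmo2 at 13.5 CPM and F3 at 30.5 CPM.

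Genes outside the set that were most like Mgp were led by Arhgdib (r = 0.56), Cst3, the secreted protease inhibitor cystatin C (0.55), and Ltbp4, which binds latent TGF-beta in the matrix (0.54). Bgn, the proteoglycan biglycan, had 0.51. Lower values were those of C2, a complement component (0.47), the matrix proteoglycan gene Spock2 (0.47), the matrix protein gene Tgfbi (0.45), the transcription factor gene Klf5 (0.44) and Cpe, a carboxypeptidase of prohormones (0.44). Fbln1 (0.43), Epha3 (0.42), Mfap4 (0.41), Tent5c (0.41) and Crispld2 (0.40) were also among the 15 highest. The lowest values were those of Postn, the matrix protein periostin (-0.41), Efemp1 (-0.38), Itih5 (-0.36), Ifi27l2a (-0.30) and Lamb1 (-0.30).

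Mgp itself was nearly absent from Pdgfra cells of both knockout libraries. It stood at 0.699 CPM in Mgp-KO (48 UMIs in 33 of 9099 cells) and at 1.92 CPM in Pd-KO (120 UMIs in 45 of 6374 cells), beside 474 CPM in Wild-type. The log2 ratio to Wild-type was -9.41 (-9.85 to -9.00) in Mgp-KO and -7.94 (-8.22 to -7.69) in Pd-KO. Free RNA held Mgp at 1.27 and 6.28 CPM in these libraries. In the mural and endothelial gates, cells without a Pdgfra UMI were read apart, a split chosen after seeing the data. In Pd-KO such cells of the mural gate held Mgp at 461 CPM (432 to 491, 968 UMIs), found in 11.3% of 453 cells, beside 367 CPM (350 to 385) found in 35.5% of 673 cells in Wild-type. In the endothelial gate they held 53.8 CPM (45.6 to 63.1) in Pd-KO, far below the 670 CPM (647 to 693) of Wild-type. Cells of the same gates with a Pdgfra UMI held 28.2 and 10.2 CPM in Pd-KO, and 738 and 576 CPM in Wild-type. In Mgp-KO, cells without a Pdgfra UMI held 12.3 CPM in the mural gate (5 UMIs), found in 0.971% of 103 cells. They held 0 UMIs in 224 cells of the endothelial gate, where 3 counts would be 3.60 CPM.

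The markers still varied together across cells in the libraries without Mgp. Over the 28 pairs of the 8 markers in Pdgfra cells, the median r was 0.43 in Wild-type (0.18 to 0.62 from lowest to highest pair), 0.28 in Mgp-KO (0.08 to 0.43) and 0.42 in Pd-KO (0.14 to 0.58). The lowest pair of each library was one with Inmt, whose pairs lay at 0.18 to 0.38, 0.08 to 0.36 and 0.14 to 0.26. Without Inmt the medians over 21 pairs were 0.48, 0.30 and 0.45. Thinned to equal depth, the medians over 28 pairs were 0.24, 0.16 and 0.25, so that Mgp-KO was lowest at either depth and Wild-type and Pd-KO lay close together. Pairs of Mgp with a marker were at 0.02 to 0.06 in Mgp-KO and at most 0.05 in Pd-KO, where few cells held an Mgp UMI.

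**Figure D2:**
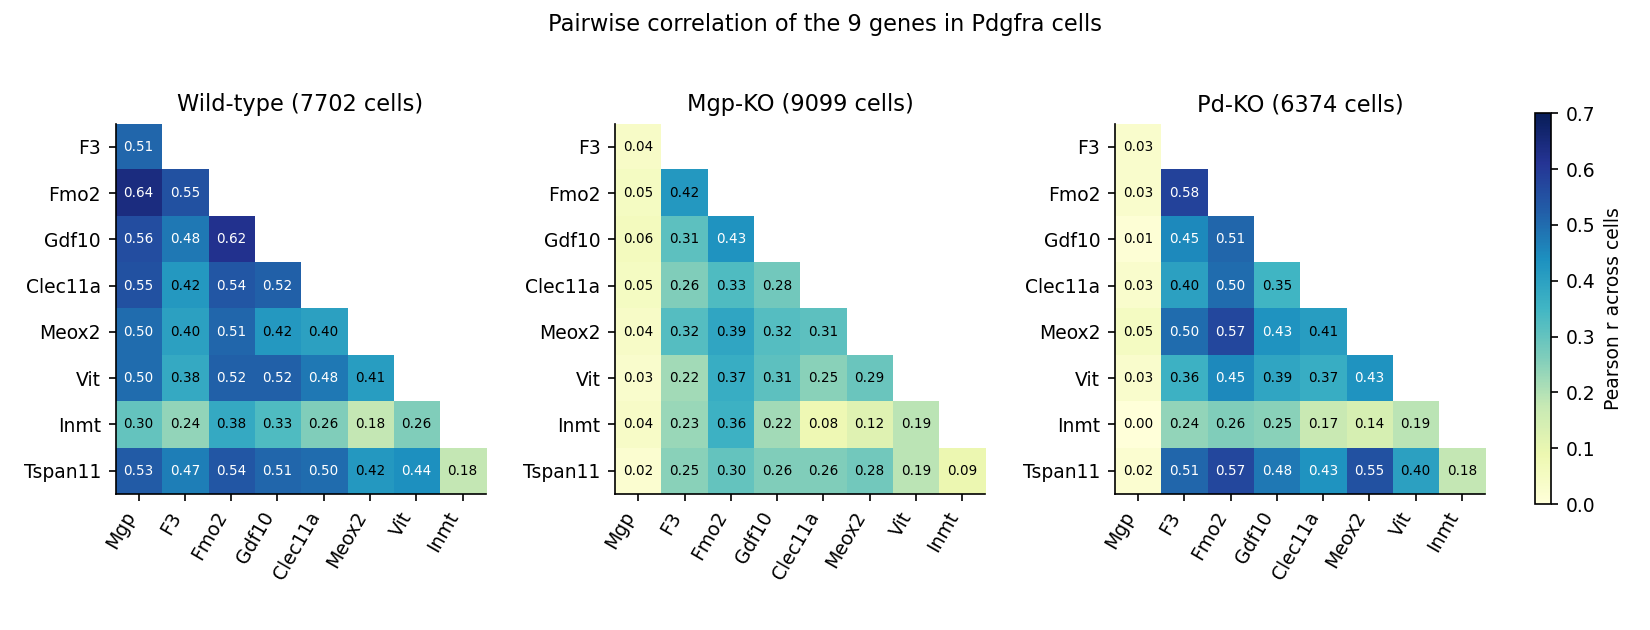
Pearson's r across Pdgfra cells for each pair of the 9 genes, 1 panel per library, with the color scale from 0 to 0.7. The Mgp column is at 0.30 to 0.64 in Wild-type and at most 0.06 in the knockouts, and the palest marker pair of each panel is a pair with Inmt (0.18, 0.08 and 0.14).

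Gdf10, which is present in all 3 libraries, was used to ask which genes followed the programme without Mgp. Fmo2 was most like Gdf10 in each library, with r = 0.62 in Wild-type, 0.43 in Mgp-KO and 0.51 in Pd-KO. In Wild-type it was followed by Mgp (0.56), Clec11a (0.52), Vit (0.52), Tspan11 (0.51), F3 (0.48), Meox2 (0.42) and Inmt (0.33). All 8 reached 0.3, as did 46 of 13337 genes (0.345%). In Mgp-KO the values were 0.32 for Meox2, 0.31 for Vit, 0.31 for F3, 0.28 for Clec11a, 0.26 for Tspan11 and 0.22 for Inmt. There 4 of 7 markers reached 0.3, beside 9 of 12625 genes (0.0713%). In Pd-KO they were 0.48 for Tspan11, 0.45 for F3, 0.43 for Meox2, 0.39 for Vit, 0.35 for Clec11a and 0.25 for Inmt, so that 6 of 7 reached 0.3 beside 29 of 13130 genes (0.221%). These numbers depended on depth, which differed between the libraries. After thinning, only Fmo2 (0.46), Mgp (0.41) and Clec11a (0.30) of the set reached 0.3 in Wild-type. In Mgp-KO only Fmo2 (0.37) did, and in Pd-KO Fmo2 (0.38), F3 (0.33) and Tspan11 (0.31). Among all genes compared, 5 of 9807, 1 of 10046 and 4 of 10313 then reached 0.3. Outside the set and at the deposited depth, C2, Bgn and Cst3 were among the 10 genes most like Gdf10 in each library, with C2 at 0.51, 0.33 and 0.43. Igfbp7, an insulin-like growth factor binding protein, and the chemokine gene Cxcl12 were so in both knockouts, at 0.33 and 0.32 in Mgp-KO and at 0.45 and 0.38 in Pd-KO. The 10 of Wild-type also held Ltbp4, Spock2, Fbln1, Epha3, Osr1, Arhgdib and Tent5c. Those of Mgp-KO held Cpe, Cygb, Dcn, Spock2 and Ccbe1, and those of Pd-KO included Steap4, Nr2f2, Cygb and Hhip.

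Gdf10 cells were a smaller part of Pdgfra cells in the knockout libraries. They were 29.7% (28.7% to 30.7%, 2288 cells) in Wild-type, 11.3% (10.6% to 11.9%, 1024 cells) in Mgp-KO and 15.4% (14.5% to 16.3%, 979 cells) in Pd-KO. After thinning, the shares were 7.69% (6.83% to 8.63%), 3.70% (3.20% to 4.25%) and 4.68% (3.99% to 5.45%), in the same order. By sex, the share was 25.1%, 9.99% and 16.3% in female cells and 33.6%, 13.9% and 13.9% in male cells. Cells just outside and just inside the gate were read to describe the threshold. Wild-type cells with 1 Gdf10 UMI (1359 cells) held Fmo2 at 30.0 CPM and F3 at 39.1 CPM, and those with 2 (679 cells) held 70.0 and 40.4 CPM. In Mgp-KO the corresponding values were 101 and 52.1 CPM in 1313 cells and 231 and 90.2 CPM in 481 cells, and in Pd-KO 48.2 and 46.0 CPM in 839 cells and 105 and 86.6 CPM in 390 cells. Because depth differed, the same UMI number is not the same Gdf10 level in each library. Thinned, cells with 1 Gdf10 UMI held Fmo2 at 303, 440 and 272 CPM in Wild-type, Mgp-KO and Pd-KO, and F3 at 140, 137 and 160 CPM. Thinned cells with 2 held Fmo2 at 493, 885 and 484 CPM and F3 at 207, 243 and 484 CPM.

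Within each library, the 7 other markers were higher in Gdf10 cells than in Pdgfra cells without Gdf10. Summed over the 7 markers, Gdf10 cells held 850 CPM in Wild-type against 165 CPM without Gdf10, a log2 ratio of 2.36 (2.33 to 2.40). The sums were 1160 against 273 CPM in Mgp-KO (2.09, 2.05 to 2.13) and 1027 against 145 CPM in Pd-KO (2.82, 2.78 to 2.87). Each of the 7 markers was at least 2-fold higher in Gdf10 cells of every library, where 1.18%, 1.48% and 2.87% of all genes tested were in Wild-type, Mgp-KO and Pd-KO. After thinning, the log2 ratios of the sum were 2.96, 2.77 and 3.10.

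Fmo2 had the largest ratio of the 7 in each library at the deposited depth. It stood at 257 against 18.0 CPM in Wild-type (log2 3.83, 3.74 to 3.93), at 411 against 43.2 CPM in Mgp-KO (3.25, 3.17 to 3.33) and at 266 against 15.6 CPM in Pd-KO (4.09, 3.97 to 4.21). The surface receptor gene F3 stood at 123 against 31.9 CPM, at 160 against 37.2 CPM and at 200 against 26.0 CPM, with log2 ratios of 1.94, 2.11 and 2.94. Free RNA held F3 at 124, 72.1 and 56.5 CPM in these libraries, which in Wild-type is close to the level of Gdf10 cells. The secreted factor gene Clec11a stood at 103 against 21.7, at 71.4 against 15 and at 118 against 27.3 CPM, with ratios of 2.25, 2.26 and 2.11, and of 3.29, 3.36 and 2.59 when thinned. For the transcription factor gene Meox2 the values were 53.5 against 12.5, 52.2 against 6.25 and 120 against 13.4 CPM, with ratios of 2.10, 3.06 and 3.17. For the matrix gene Vit they were 49.3 against 4.74, 51.8 against 7.04 and 83.8 against 9.93 CPM, with ratios of 3.38, 2.88 and 3.08. Tspan11 stood at 46.0 against 4.67, at 34.7 against 4.93 and at 105 against 7.20 CPM, with ratios of 3.30, 2.82 and 3.86. Inmt had the smallest ratio in each library, with 219 against 71.7 CPM (1.61), 378 against 159 CPM (1.25) and 135 against 45.5 CPM (1.57). It was also the smallest after thinning, at 2.38, 1.85 and 1.83.

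**Figure D3:**
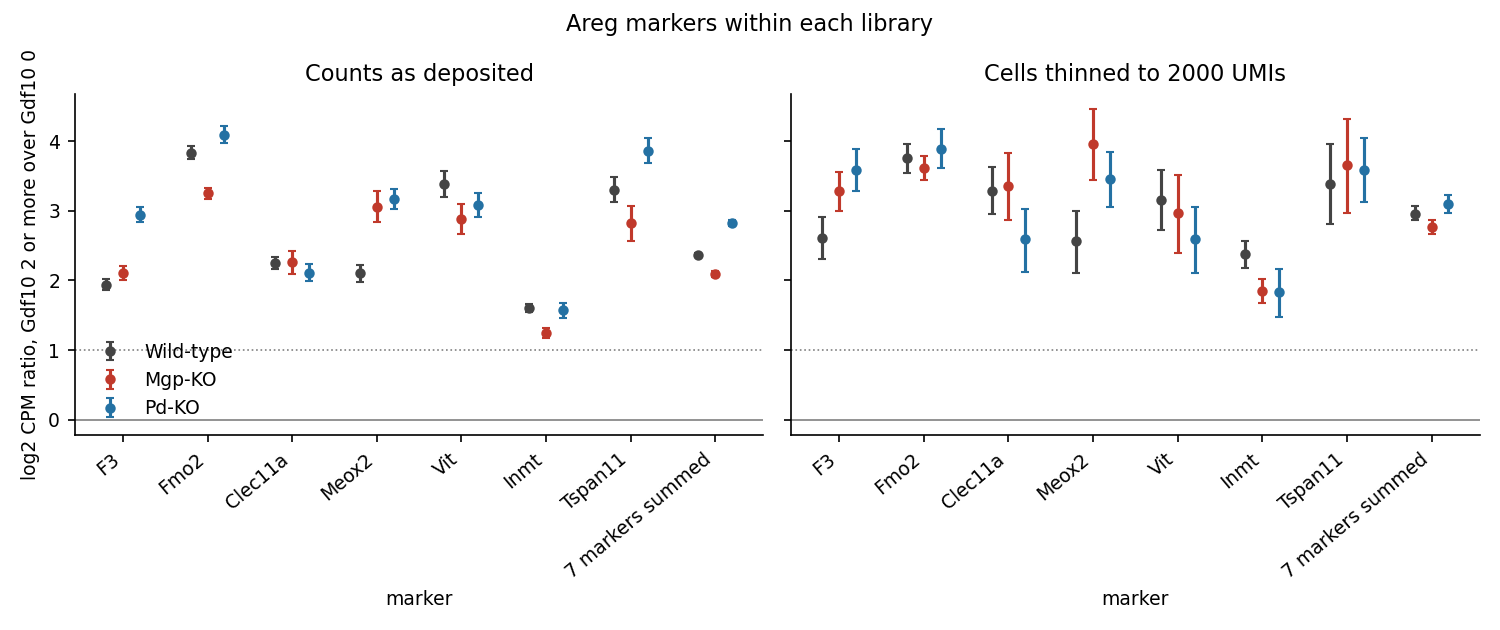
Log2 ratio of CPM in Gdf10 cells over Pdgfra cells without Gdf10 for each marker and for the sum of 7, as deposited (left) and thinned to 2000 UMIs per cell (right), with 95% intervals for counting error as bars and a dotted line at 2-fold. Every point lies above 2-fold, and Inmt is the lowest marker of each library in both panels.

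The markers were also found together in the same Gdf10 cells without Mgp. A Gdf10 cell held on average 2.92 of the 7 other markers in Wild-type, 2.43 in Mgp-KO and 2.87 in Pd-KO, whereas cells without Gdf10 held 1.04, 0.880 and 0.752. At least 5 of the 7 were found in 30.1%, 17.3% and 29.8% of Gdf10 cells and in 0.419%, 0.621% and 0.922% of cells without Gdf10. The distribution over Gdf10 cells had 2 peaks in Wild-type, with 19.1% of cells at 1 marker, 8.52% at 4 and 12.1% at 6. Pd-KO had the same form, with 18.6% at 1 marker, 10.2% at 4 and 13.6% at 6. Mgp-KO had 20.1% at 1 marker and then lower shares at each step, with 13.9% at 4, 10.2% at 5 and 5.96% at 6, and its cells were the shallowest. The peak at 6 markers was not seen after thinning to 2000 UMIs. Wild-type Gdf10 cells then had their highest share at 2 markers (23.0%), with 14.1% at 4 and 0.743% at 6, and Mgp-KO had 28.0%, 8.99% and 1.06% at the same numbers. Pd-KO had 19.7% at 1 marker (31 cells), 12.1% at 2 (19 cells), its highest share at 3 (24.8%, 39 cells) and 2.55% at 6. The dip at 2 markers rests on these few cells of 1 random draw and was not tested. The thinned cells numbered 269, 189 and 157. The mean was 2.28, 2.30 and 2.39 markers in Gdf10 cells and 0.368, 0.480 and 0.362 in cells without Gdf10.

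**Figure D4:**
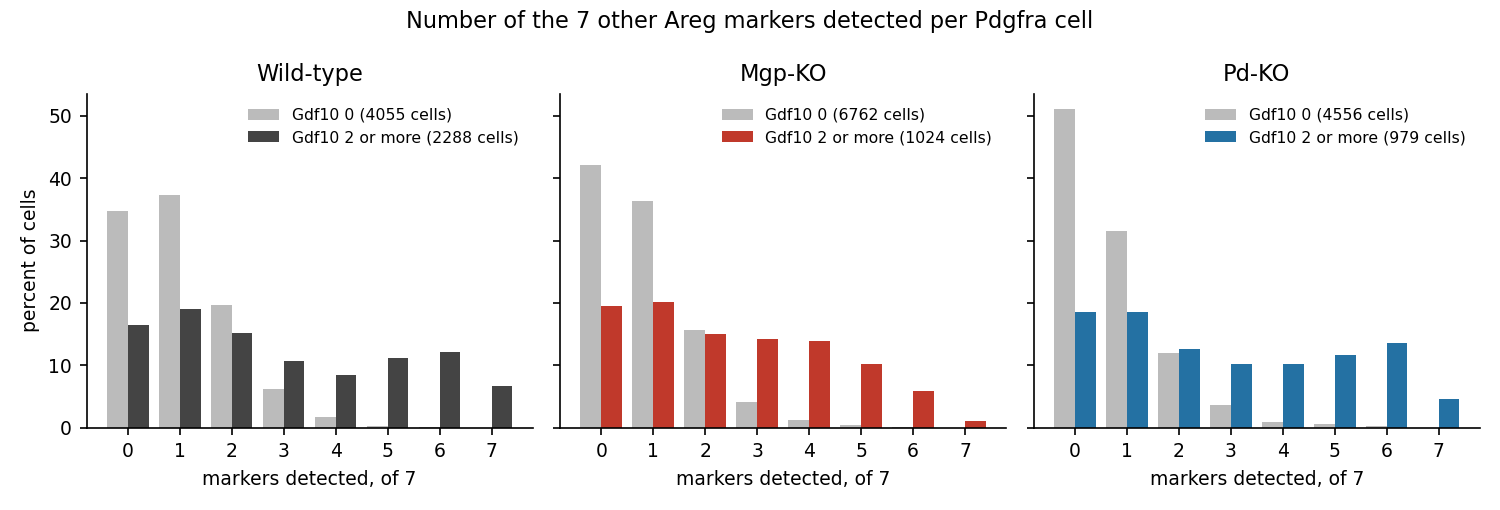
Percent of Pdgfra cells by the number of the 7 other markers with at least 1 UMI, for Gdf10 cells (colored bars) and cells without Gdf10 (grey bars), 1 panel per library. Wild-type and Pd-KO Gdf10 cells have a second peak at 6 markers (12.1% and 13.6%), and Mgp-KO has 5.96% there, at the deposited depth, which differs between the libraries.

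Between libraries, the marker sum in Gdf10 cells was not lower in either knockout at the deposited depth. The log2 ratio to Wild-type was 0.45 (0.41 to 0.48) in Mgp-KO and 0.27 (0.24 to 0.30) in Pd-KO, where the median over all genes tested was 0.12 and 0.22. Thinned, it was 0.25 (0.13 to 0.37) and -0.10 (-0.23 to 0.04), so that the direction in Pd-KO depended on depth. With at least 2 F3 UMIs as the gate, and Gdf10 in the place of F3 in the sum, the ratio in Mgp-KO was -0.02 (-0.06 to 0.02), and in male cells of the Gdf10 gate it was 0.19 (0.11 to 0.26). In the Gdf10 gate, Fmo2 and Inmt were the largest parts of the sum in Mgp-KO (411 and 378 of 1160 CPM) and in Wild-type (257 and 219 of 850 CPM). In Pd-KO they were Fmo2 and F3 (266 and 200 of 1027 CPM). The sum therefore does not describe each marker. In Mgp-KO only Mgp of the 9 genes differed by 2-fold or more, as did 17.8% of 11909 genes tested. Pd-KO had 3 such genes (Mgp, Meox2 and Tspan11) beside 22.3% of the genes tested. Both comparisons share the Wild-type library.

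The markers did not move as a block. Inmt was 1.73-fold higher in Mgp-KO Gdf10 cells (378 against 219 CPM, log2 0.79, 0.73 to 0.85), and it was lower in Pd-KO (135 CPM, -0.70, -0.78 to -0.61). Thinned, the ratios were 0.47 and -1.22. The higher Inmt of Mgp-KO was not limited to Gdf10 cells. Free RNA held Inmt at 156 CPM (129 to 186) in Mgp-KO and at 33.9 CPM in Wild-type. The endothelial gate held 67.9 against 27.6 CPM and the mural gate 101 against 57.0 CPM, whereas the epithelial gate held 13.1 against 16.0 CPM. Fmo2 was at 0.68 (0.62 to 0.74) in Mgp-KO and at 0.05 (-0.02 to 0.11) in Pd-KO, and thinned at 0.40 and -0.43. F3 was higher in both, at 0.38 (0.29 to 0.48) and 0.71 (0.63 to 0.78), and thinned at 0.53 and 0.83, but in male cells of Mgp-KO it was lower, at -0.25 (-0.49 to -0.01), beside 0.31 in female cells. Meox2 and Tspan11 were 2.25-fold and 2.28-fold higher in Pd-KO, at log2 1.17 (1.06 to 1.27) and 1.19 (1.07 to 1.30), and thinned at 1.15 and 1.18. In Mgp-KO they were at -0.04 (-0.19 to 0.12) and -0.41 (-0.60 to -0.22). Vit was at 0.07 (-0.09 to 0.23) in Mgp-KO and at 0.77 (0.64 to 0.89) in Pd-KO, and thinned at -0.65 and -0.02. Clec11a was lower in Mgp-KO at -0.53 (-0.66 to -0.40), and at 0.19 (0.09 to 0.29) in Pd-KO it turned to -0.60 when thinned. Gdf10, which set the gate, was at 0.27 and 0.13.

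Over all Pdgfra cells, where fewer cells with the programme and less of it per cell cannot be told apart, most markers were lower in the knockouts. The sum of 7 markers was lower only in Pd-KO, at -0.38 (-0.40 to -0.35), and stood at 0.02 (0.00 to 0.05) in Mgp-KO. Thinned, the sum was at -0.43 and 0.04 in the same order. In Mgp-KO, Clec11a stood at 22.0 CPM against 47.6 CPM in Wild-type (log2 -1.11, -1.20 to -1.03), Meox2 at 12.8 against 25.5 CPM (-1.00, -1.11 to -0.89), Tspan11 at 9.11 against 18.0 CPM (-0.98, -1.11 to -0.85) and Gdf10 at 69.5 against 127 CPM (-0.87, -0.91 to -0.82). Vit was at -0.47, F3 at -0.20 and Fmo2 at -0.01 (-0.06 to 0.03), and Inmt was higher at 187 against 119 CPM (0.65, 0.62 to 0.69). In Pd-KO the lowest were Inmt at 61.1 CPM (-0.96, -1.01 to -0.91), Gdf10 at 75.7 CPM (-0.74, -0.79 to -0.70) and Fmo2 at 58.3 against 93.9 CPM (-0.69, -0.74 to -0.63). Clec11a was at -0.18 and F3 at -0.15, whereas Vit (0.31), Meox2 (0.32) and Tspan11 (0.40) were higher. A difference of 2-fold or more was reached by Mgp and Clec11a in Mgp-KO, with Meox2 just short of it, beside 23.8% of 15199 genes, and by Mgp alone of the 9 in Pd-KO, beside 29.4%. Thinned ratios were -1.29, -1.00, -1.03 and 0.60 for Clec11a, Meox2, Tspan11 and Inmt in Mgp-KO, and -0.35, 0.32, 0.59 and -1.01 in Pd-KO.

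**Figure D5:**
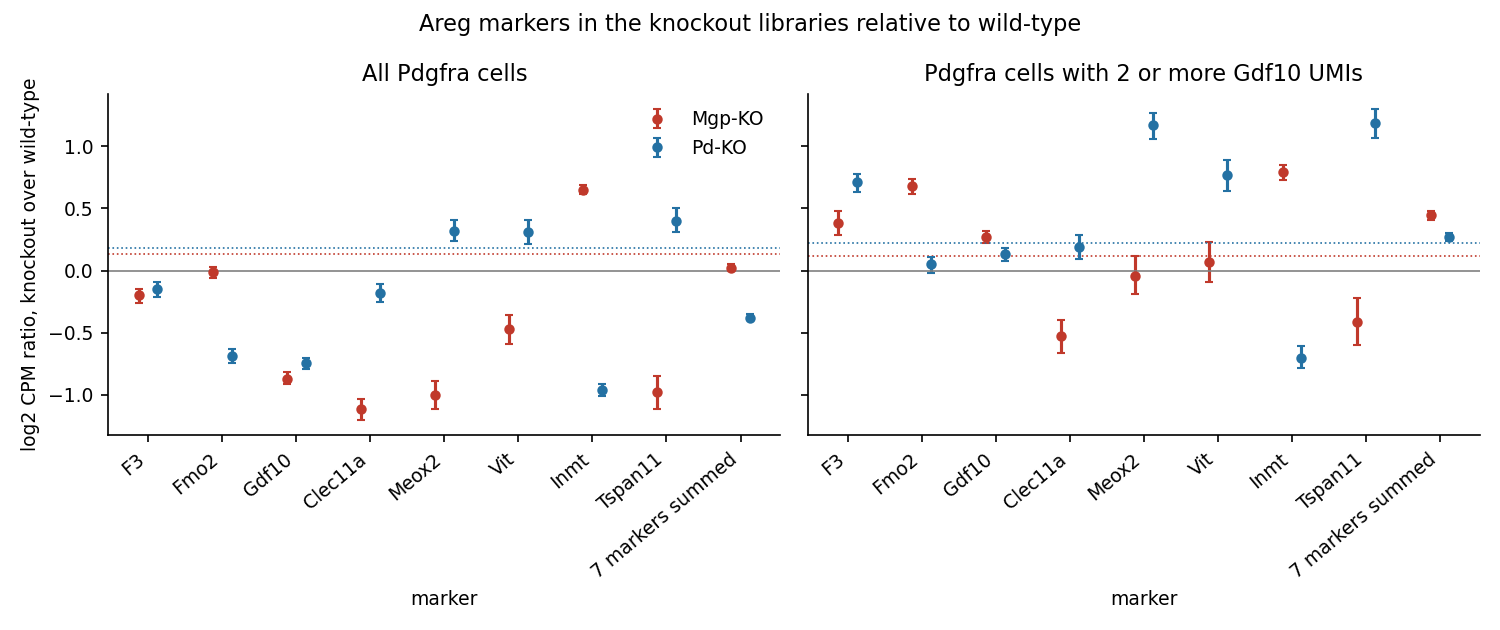
Log2 ratio of CPM in each knockout library over Wild-type for each marker and for the sum of 7 (without Gdf10), in all Pdgfra cells (left) and in Gdf10 cells (right), with 95% intervals for counting error as bars and dotted lines at the median over all genes tested. Inmt lies above 0 in Mgp-KO and below 0 in Pd-KO in both panels, and Meox2 and Tspan11 lie highest in Pd-KO Gdf10 cells.

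Sex moved with some of these values, and its part in them was not tested. Inmt in Pdgfra cells was at a log2 ratio of 0.94 in female and 0.06 (-0.02 to 0.14) in male cells of Mgp-KO, and at -1.40 and -0.77 in Pd-KO. In Gdf10 cells it was at 1.10 and 0.40 in Mgp-KO and at -0.96 and -0.61 in Pd-KO. Meox2 in Pd-KO Gdf10 cells was at 1.44 in female and 0.87 in male cells, and Tspan11 at 1.38 and 1.09. Other values of Mgp-KO turned with sex. F3 in Gdf10 cells was at 0.31 (0.18 to 0.44) in female and -0.25 (-0.49 to -0.01) in male cells. In Pdgfra cells Fmo2 was at 0.12 (0.06 to 0.19) and -0.50 (-0.61 to -0.39), and the sum of 7 markers at 0.20 (0.17 to 0.23) and -0.42 (-0.47 to -0.37). In Pd-KO, Clec11a in Pdgfra cells was at 0.12 (-0.01 to 0.24) in female and -0.42 (-0.52 to -0.31) in male cells, and Meox2 at 0.73 and 0.01 (-0.13 to 0.14).

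Other gene groups were read across the same cells, as the ratio of Gdf10 cells over Pdgfra cells without Gdf10. At least 2-fold higher were 1.18%, 1.48% and 2.87% of genes tested, and at least 2-fold lower were 3.06%, 2.32% and 2.69%, in Wild-type, Mgp-KO and Pd-KO, with medians of -0.06, -0.03 and 0.04. The 7 markers had medians of 2.25, 2.82 and 3.08. Genes of interstitial progenitors, the Dpp4-positive cells at the start of the adipocyte lineage, had medians of -0.65, -0.74 and -1.30. At least 2-fold lower were 1 of 8 in Wild-type, 1 in Mgp-KO and 6 in Pd-KO, with Pi16 lowest in each at -1.25, -1.27 and -2.02. The highest were Ly6c1 in Wild-type (-0.13) and Pd-KO (-0.62) and Mfap5 in Mgp-KO (-0.39). Pi16 stood at 352, 450 and 463 CPM in Gdf10 cells of Wild-type, Mgp-KO and Pd-KO, and at 837, 1086 and 1877 CPM in cells without Gdf10. Genes of committed preadipocytes had medians of -0.15, 0.20 and 0.82. None of 8 passed 2-fold in Wild-type or Mgp-KO, and in Pd-KO the lipoprotein gene Apoe (1.23) and the adhesion gene Icam1 (1.02) did. Fabp4, a fatty acid binding protein, had the lowest ratio of this group in each library at -0.85, 0.05 and -0.17. Icam1 had the highest ratio in Wild-type (0.10) and Mgp-KO (0.42).

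Vitamin K-cycle and Gla protein genes were read because Mgp is a Gla protein. Of 6 genes, 5 had at least 100 UMIs and were tested, with medians of 0.22, 0.24 and 0.23. Gas6, a secreted Gla protein that activates TAM receptors, was at least 2-fold higher in Gdf10 cells of each library. It stood at 122 against 53.7 CPM in Wild-type (log2 1.18, 1.12 to 1.25), at 254 against 118 CPM in Mgp-KO (1.10, 1.03 to 1.18) and at 179 against 78.7 CPM in Pd-KO (1.19, 1.10 to 1.27). Vkorc1l1, of the vitamin K epoxide reductase family, was lowest at 0.06, 0.02 and -0.12. Coagulation genes around F3 had 6 of 10 tested and medians of -0.08, 0.01 and 0.24. The thrombin receptor gene F2r was lowest in Wild-type (-1.30) and Mgp-KO (-0.97), and the protein C receptor gene Procr was lowest in Pd-KO (-1.32). The highest were Thbd, thrombomodulin, in Wild-type (0.56) and the protease inhibitor gene Tfpi2 in Mgp-KO (0.43).

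BMP and TGF-beta signalling genes, of interest because matrix Gla protein binds BMPs, had medians of 0.02 (17 of 18 tested), -0.03 (16) and 0.00 (16). In Wild-type the BMP target gene Id2 was highest at 0.59, and the BMP antagonist gene Grem1 was lowest at -3.18, with 15 UMIs in Gdf10 cells and 223 in cells without Gdf10. The ligand gene Bmp7 was lowest in Mgp-KO at -0.99, where Id3 and Bmp4 were highest at 0.23. In Pd-KO the ligand genes Bmp7 (-1.75), Bmp2 (-1.61) and Bmp4 (-1.01) were at least 2-fold lower, and Bmper, a BMP-binding protein, was highest at 0.88. Bmp7 in Gdf10 cells stood at 17.8 CPM in Pd-KO and 8.44 CPM in Wild-type, and in cells without Gdf10 at 59.9 and 16.5 CPM. Bmp2 had 38 UMIs in Pd-KO Gdf10 cells. Nog, which encodes the BMP antagonist noggin, had under 100 UMIs over the compared Pdgfra cells of each library and is named after its values were seen. It had 71 UMIs in Gdf10 cells and 8 in cells without Gdf10 in Wild-type, 39 and 13 in Mgp-KO, and 41 and 7 in Pd-KO.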

How the data were processed

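Single-cell RNA-seq (10x Genomics) of 3 libraries, 1 per genotype, was analysed. The values the authors deposited are UMI counts for every gene in every barcode, neither filtered nor normalized. The methods and processing notes name Cell Ranger 6.1.1, the matrix headers name 4 (Wild-type) and 7.1.0 (knockouts). The methods name mm10 and the notes GRCm39, whereas coordinates and sequences given here are from GRCm38 annotation and RefSeq, and intron handling is not given in the sources used here.

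The 9 genes and all gene lists were chosen with earlier results of these data known. Cells had at least 2000 UMIs and at most 10% mitochondrial UMIs, which removed 426, 4 and 187 barcodes in Wild-type, Mgp-KO and Pd-KO. No doublet caller was run, and leaving out Pdgfra cells with a lineage gate was tried instead. Lineages are gates on marker counts and not clusters. Correlations used the logarithm of 1 plus UMIs per 10000 over genes found in at least 1% of the cells. Ratios used CPM with exact conditional binomial intervals, and genes with at least 100 UMIs entered the background, with 0.5 UMIs added. Shares have Clopper-Pearson intervals, all at 95%. Thinning used 1 seeded draw. The genes named are the 9 members, the 15 highest and 5 lowest by correlation with Mgp, the 10 highest with Gdf10 per library, and the highest and lowest of each list, of which some are not reported here. Exceptions are genes past 2-fold in a list and Nog, which were named after their values were seen. Alternatives changed the UMI minimum, mitochondrial limit, gates, depth, pooling, scaling, correlation measure and sex of the cells. Steps were tested on simulated data. Python 3.11.15, numpy 2.4.6, scipy 1.17.1, pandas 2.3.3 and matplotlib 3.10.9 were used.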

Additional observations from a re-analysis of the deposited data

Results flagged for a closer look

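For the genes below, the log2 ratio to Wild-type lay above 0 in one knockout library and below 0 in the other, with both counting intervals clear of 0. Both comparisons share the Wild-type library, each genotype is 1 library, and the difference between the knockouts was not tested.

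In Gdf10 cells, Inmt was at 0.79 in Mgp-KO and at -0.70 in Pd-KO, and Tspan11 was at -0.41 and 1.19. Thinned, Inmt was at 0.47 and -1.22, and Tspan11 at -0.31 (-1.01 to 0.36) and 1.18. Clec11a was at -0.53 in Mgp-KO and at 0.19 in Pd-KO, and after thinning to 2000 UMIs it was below 0 in both, at -0.92 and -0.60. Over all Pdgfra cells, Inmt was at 0.65 in Mgp-KO and at -0.96 in Pd-KO. The other 3 genes lay the opposite way there. Meox2 was at -1.00 and 0.32, Tspan11 at -0.98 and 0.40, and Vit at -0.47 and 0.31. Thinned to equal depth, Inmt was at 0.60 and -1.01, Meox2 at -1.00 and 0.32, Tspan11 at -1.03 and 0.59, and Vit at -0.92 and 0.10 (-0.16 to 0.36), so that Vit in Pd-KO did not differ from Wild-type beyond counting error at that depth.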

How the results depend on the processing

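No paired analysis was possible because each genotype is 1 library, and no replicate could be left out. Of 90 alternative values, 38 moved by less than the counting interval, 50 moved further and 2 changed sign. Both the depth of the cells and the Gdf10 gate moved the shares, and no alternative addresses the lack of replicates. Values follow as the median r with Mgp, the within-library log2 ratio of the marker sum (Wild-type, Mgp-KO, Pd-KO), the log2 ratio to Wild-type in Gdf10 cells (Mgp-KO, Pd-KO) and the share of Gdf10 cells (Wild-type, Mgp-KO, Pd-KO), where they moved. As reported, these were 0.52, then 2.36, 2.09 and 2.82, then 0.45 and 0.27, then 29.7%, 11.3% and 15.4%. Thinned, the median r was 0.33, the within-library ratios were 2.96, 2.77 and 3.10, the ratios to Wild-type 0.25 and -0.10, and the shares 7.69%, 3.70% and 4.68%. The change of sign in Pd-KO came with an interval of -0.23 to 0.04, and its cause was not tested. With F3 in place of Gdf10 as the gate, the ratio to Wild-type in Mgp-KO was -0.02 (-0.06 to 0.02), and the cause was not tested. With at least 1 Gdf10 UMI as the gate, the within-library ratios were 1.88, 1.40 and 2.18, the ratios to Wild-type 0.25 and 0.11, and the shares 47.4%, 25.7% and 28.5%. With at least 3, they were 2.74, 2.54 and 3.26, then 0.53 and 0.33, then 20.9%, 5.97% and 9.24%. With at least 2 Pdgfra UMIs, the within-library ratios were 2.29, 1.92 and 2.70, the ratio to Wild-type was 0.36 in Mgp-KO, and the share was 32.0% in Wild-type and 16.8% in Pd-KO. With a minimum of 4000 UMIs, the Mgp-KO values were 2.03 within the library and 0.29 to Wild-type. Without cells of a lineage gate, the median r was 0.54, the Wild-type ratio 2.43 and the ratios to Wild-type 0.41 and 0.22. With each cell weighted equally, the within-library ratios were 2.55, 2.28 and 2.95, and the ratio to Wild-type in Pd-KO was 0.20. This setting was not run for the correlation, which already weights cells equally. Median-ratio scaling gave 0.33 and 0.05 to Wild-type, and Spearman's correlation a median of 0.33. Female and male cells alone, chosen after seeing the data, gave shares of 25.1%, 9.99% and 16.3% and of 33.6%, 13.9% and 13.9%, and male cells a ratio to Wild-type of 0.19 in Mgp-KO.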

Other observations

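Pdgfra cells without a Gdf10 UMI were also compared between libraries. A difference of 2-fold or more from Wild-type was reached by 22.9% of 14336 genes tested in Mgp-KO and by 29.7% in Pd-KO. In Mgp-KO, Fmo2 stood at 43.2 CPM against 18.0 CPM in Wild-type (log2 1.26, 1.16 to 1.37) and Inmt at 159 against 71.7 CPM (1.15, 1.10 to 1.21), whereas Meox2 stood at 6.25 against 12.5 CPM (-1.00, -1.19 to -0.80). In Pd-KO, Vit stood at 9.93 against 4.74 CPM (1.07, 0.85 to 1.29), and Inmt at 45.5 CPM (-0.66, -0.73 to -0.58). After thinning, these ratios were 0.53, 1.00 and -1.15 for Fmo2, Inmt and Meox2 in Mgp-KO and 0.54 and -0.68 for Vit and Inmt in Pd-KO, in the same direction. Vit in Mgp-KO did not keep its direction, at 0.57 (0.34 to 0.80) as deposited and at -0.48 (-0.88 to -0.07) thinned. Free RNA held Inmt at 156 CPM (129 to 186) in Mgp-KO, close to the level of these cells, and at 33.9 CPM in Wild-type. It held Fmo2 at 73.4 CPM (55.7 to 94.9) in Mgp-KO, above the level of these cells, and at 36.5 CPM in Wild-type.

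Early adipocytes, Pdgfra cells without a lineage gate that held at least 5 UMIs over Adipoq, Plin1, Cidec, Car3, Cfd and Lipe and at least 3 of these genes, numbered 134 in Wild-type, 26 in Mgp-KO and 19 in Pd-KO. Such a gate depends on depth, which differed between the libraries, so these numbers do not compare the genotypes. These cells had median UMI counts of 27108.5, 10942.5 and 12181 in the same order. In Wild-type they held Mgp at 51.1 CPM (44.3 to 58.6), Gdf10 at 21.6 CPM (17.3 to 26.7) and Fmo2 at 27.7 CPM (22.8 to 33.4), below Pdgfra cells without a lineage gate (475, 133 and 96.4 CPM), whereas F3 stood at 58.4 CPM (51.1 to 66.4) beside 60.3 CPM (58.9 to 61.8). Interstitial progenitors, gated in the same way on Dpp4, Pi16, Cd55, Anxa3, Sema3c and Wnt2, held Mgp at 284 CPM, Gdf10 at 98.3 CPM, Fmo2 at 51.4 CPM and F3 at 37.5 CPM in 3278 Wild-type cells. These values lay below those of the Pdgfra cells without a lineage gate, which include them.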
